A study of Mus musculus with 5 samples.

Results

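TGF-beta and BMP signalling genes were followed across cultured mouse mammary tumour cells and 2 sub-lines that home to different organs. A gene belonged to the set if its annotated symbol began with Bmp, Tgfb, Smad, Acvr, Inhb or Ltbp, was Id followed by a digit from 1 to 4, or was Nog, Grem1, Fst, Skil or Pmepa1. The rule used no measured value and found 55 of the 18193 genes with a probe set of their own on the arrays, through 123 probe sets. Of these 55 genes, 38 passed the filter on dim genes and were tested, and 17 did not. A gene passed where its brightest array reached 25.1, the median of all intensities.

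RNA was measured on 5 Affymetrix arrays of 1 colour, 1 array per sample. NT2.5 cells come from a mammary tumour of a mouse with the neu oncogene under the MMTV promoter, an origin that every sample shares. The groups were the wild type NT2.5 cells (parental, n = 1, with bone, liver and lung given as metastatic sites), the bone sub-line at passages 3 and 6 (n = 2) and the sub-line from liver at passages 1 and 3 (n = 2). No treatment is named for any group, and the sources used here do not say whether a sub-line was a clone or a pool. Passages of 1 lineage took the place of replicates, so p-values cover the spread between these arrays, which may be technical, and do not extend to other isolates. For the single parental array the spread of the passages was used.

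TGF-beta, activin and BMP ligands are secreted dimers that bring type I and type II serine/threonine kinase receptors together. The activated receptors phosphorylate Smad2 and Smad3 on the TGF-beta and activin side and Smad1, Smad5 and Smad9 on the BMP side, and these enter the nucleus with Smad4. In breast tumour cells TGF-beta restrains growth early and is linked to invasion later, and TGF-beta released from bone matrix is a known signal for tumour cells growing in bone. The Id genes, which encode inhibitors of helix-loop-helix transcription factors, are classical BMP targets.

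The member with the largest difference between the sub-lines was Id4, which was brighter on both bone arrays than on every other array. Tgfb3, the ligand TGF-beta 3, was brighter on both bone arrays than on both liver arrays. Smad3, a signal transducer of TGF-beta and activin, and Pmepa1 and Skil, a pair of feedback inhibitors that TGF-beta itself induces, were dimmer on both bone arrays than on both liver arrays. For Smad3 and Skil a further probe set did not keep this order. Smad7, an inhibitory Smad that TGF-beta also induces, overlapped between the sub-lines (808 and 977 in bone, 1090 and 869 in liver). In every bone-liver pair 6 of the 38 tested members were higher in bone and 11 lower, against 21.2% and 25.9% of all tested genes. None of the 38 tested members passed limma's test at an adjusted p under 0.05 (Benjamini-Hochberg over the 12609 genes tested) in bone against liver, bone against parental or liver against parental, where 0.19%, 0.135% and 0.0159% of all tested genes passed. At an unadjusted p under 0.05, limma called 5 members in bone against liver (14.1% of all tested genes), 2 in bone against parental (8.17%) and 3 in liver against parental (7.49%). Both comparisons with parental share the same parental array.

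**Figure D1:**
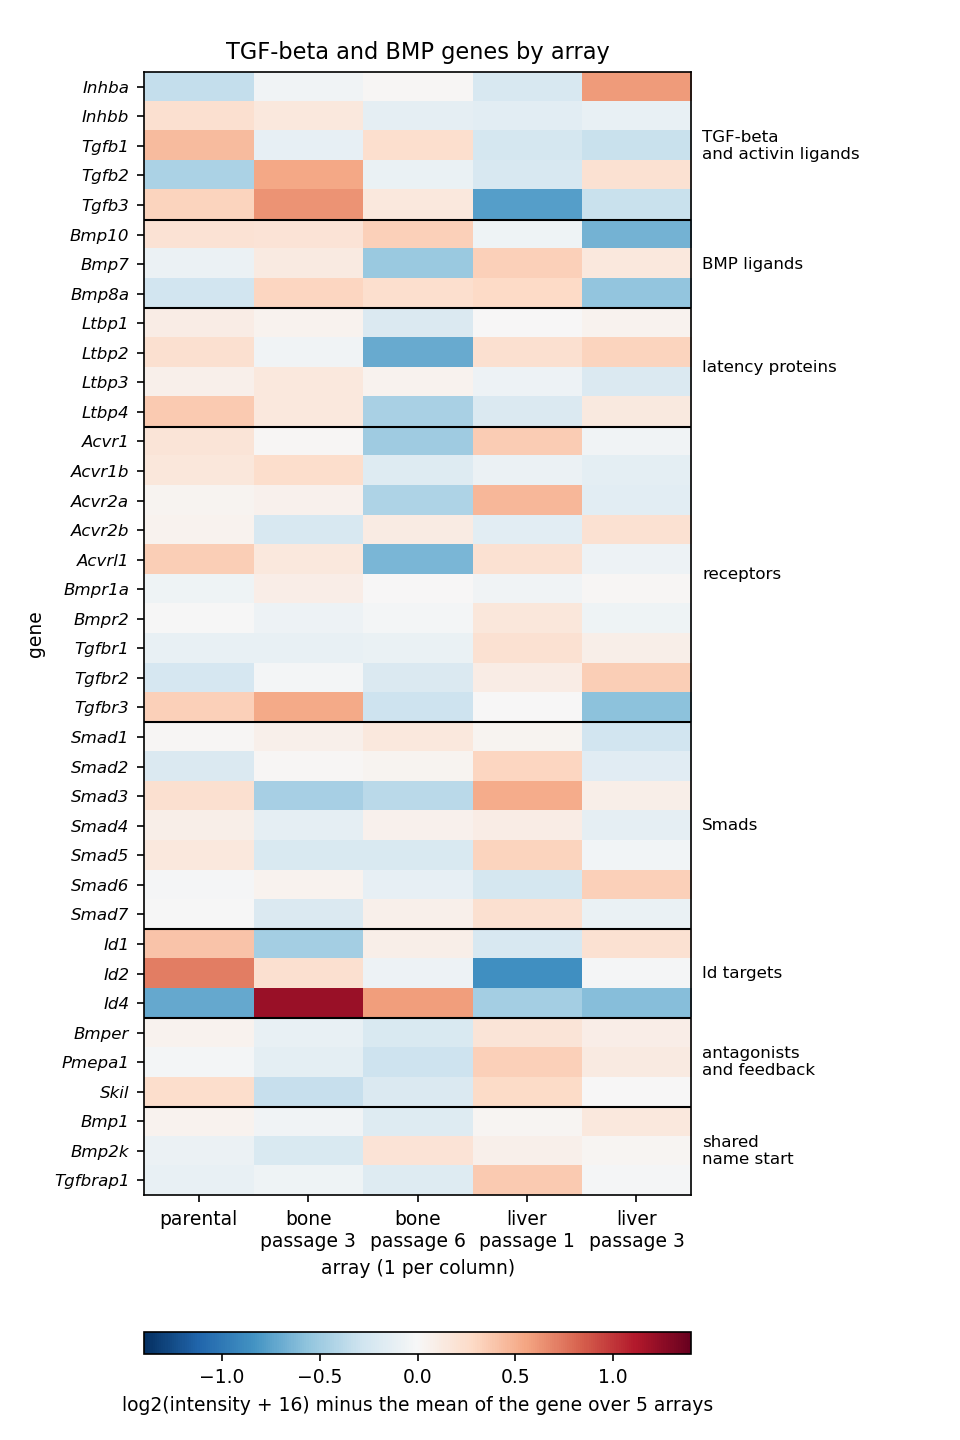
Each cell is 1 of the 38 tested genes (vertical axis, grouped by role) on 1 of the 5 arrays (horizontal axis), coloured by log2(intensity + 16) minus the mean of that gene over the 5 arrays, with red above and blue below that mean. Id4 has the deepest red, on bone passage 3, and 5 of the 38 genes span 1 log2 unit or more. The median span is 0.58 log2 units, the same as over all tested genes (0.58).

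The deposited values are intensities on a linear scale, and tests used log2(intensity + 16), which understates the differences of dim genes. Epithelial identity was checked with 8 mammary epithelial markers, of which 7 passed the filter. Their summed intensity lay between 21928 and 25924 on the 5 arrays, while Krt19, a keratin of simple epithelia, did not pass. The median intensity lay between 21.9 and 26.4, lowest on bone passage 6. Of the 12609 tested genes, 10912 reached the filter value on that array and 11240 to 11509 did on the others. The highest of the 5 values exceeded the lowest by a median of 0.58 log2 units among the 38 members, the same as over all tested genes (0.58).

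Id proteins bind helix-loop-helix factors and keep them from DNA, and the promoters of the Id genes in the promoter table, Id4, Id2 and Id3, are shown because Id4 and Id2 were the members with the widest span over the 5 arrays, while Id3 was dim on every array. The windows are the 250 bases before the annotated start from the RefSeq promoter table of assembly GRCm38.p6, written 5′ to 3′ on the strand of the gene. Capitals mark matches to GGCGCC, a core bound by BMP Smads, which reads the same on both strands. The Id4 window is chr13:48260866-48261115 on the plus strand, the Id2 window is chr12:25096093-25096342 on the minus strand, and the Id3 window is chr4:136143572-136143821 on the plus strand.
Id4: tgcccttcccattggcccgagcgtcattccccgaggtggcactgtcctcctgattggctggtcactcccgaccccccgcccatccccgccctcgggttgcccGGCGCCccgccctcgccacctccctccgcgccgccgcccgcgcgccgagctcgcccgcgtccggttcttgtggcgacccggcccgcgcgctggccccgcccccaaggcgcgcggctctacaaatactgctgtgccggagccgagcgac
Id2: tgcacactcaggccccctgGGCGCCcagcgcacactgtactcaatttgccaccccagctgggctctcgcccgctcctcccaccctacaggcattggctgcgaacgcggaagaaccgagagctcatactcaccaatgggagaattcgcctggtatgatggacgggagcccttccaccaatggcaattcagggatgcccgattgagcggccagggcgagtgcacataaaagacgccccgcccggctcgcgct
Id3: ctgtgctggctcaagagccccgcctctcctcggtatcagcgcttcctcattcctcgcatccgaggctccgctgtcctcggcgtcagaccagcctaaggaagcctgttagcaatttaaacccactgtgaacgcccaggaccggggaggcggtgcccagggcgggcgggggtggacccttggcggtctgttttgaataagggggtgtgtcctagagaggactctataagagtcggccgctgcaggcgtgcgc
The Id4 and Id2 windows each hold 1 match and the Id3 window holds 0. G and C make up 75.6% of the Id4 window and 62.8% of each of the other two.

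The promoter table held 50 windows for 40 of the 55 members. GGCGCC was found in 13 of the 50 windows (26%), against 9.59% of all 32851 windows of the same length. The member windows were also richer in G and C, with a median of 64.2% against 52.4% over all windows. The palindrome GTCTAGAC, which holds the Smad-binding GTCT core in both directions, was in 0 member windows and in 0.167% of all windows. The E-box CACGTG was in 4 member windows (8%) and in 6.02% of all windows. The matches are descriptions of sequence and not of binding in these cells.

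Id4 had an intensity of 510 on the parental array, 1978 and 1283 on bone passages 3 and 6, and 607 and 555 on liver passages 1 and 3. Both bone arrays stood above the other three, and parental and liver lay close together. The mean log2 difference of bone from liver was 1.43 ± 0.25 (SE), or 2.70-fold, and the 4 bone-liver pairs of arrays gave 2.08-fold to 3.49-fold (limma adjusted p = 0.111, unadjusted p = 0.0011). From parental, the bone arrays differed by 1.61 ± 0.31, or 3.06-fold (limma adjusted p = 0.193, unadjusted p = 0.0017), and the liver arrays by 0.18 ± 0.31 (adjusted p = 0.936).

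Id4 was the only member whose arrays differed at least 2-fold in every bone-liver pair, where 1.06% of all tested genes were, and in bone against parental, where 2.14% were. In liver against parental 0 members and 1.8% of all tested genes were. All 3 probe sets of Id4 gave the same order of bone over the rest, with log2 differences from liver of 1.43 to 1.72 and from parental of 1.61 to 1.99. Its level was not the same at both bone passages: passage 6 lay 0.62 log2 units under passage 3. In a fit of the sub-line arrays alone, with early and late passage as a block, Id4 was the 1 member called in bone against liver (limma adjusted p = 0.0312). That setting called 1.28% of all tested genes. It left out the parental array and had fewer residual degrees of freedom than the main fit. Over the 13 alternative settings its adjusted p ranged from 0.0312 to 0.337 and its difference from 1.12, without bone passage 3, to 1.74, without bone passage 6.

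Id2, which in the mammary gland takes part in lobule development, was brightest on the parental array. Its intensity was 768 there, 545 and 440 on bone passages 3 and 6, and 248 and 457 on liver passages 1 and 3. Every sub-line array lay below parental, while the bone and liver values overlapped. The liver mean was 1.15 ± 0.38 log2 units below parental, or 2.22-fold lower (limma adjusted p = 0.573, unadjusted p = 0.0215). That difference was -1.57 with liver passage 1 alone and -0.73 with liver passage 3 alone, and the second probe set gave -0.90. Liver passage 1 was also the array on which 2 members, Id2 and Tgfb3, were at least 2-fold from parental in a single comparison, where 4.53% of all tested genes were.

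Id1, the family member most studied in breast cancer metastasis, had 1407 on the parental array, 758 and 1126 on bone passages 3 and 6, and 904 and 1236 on liver passages 1 and 3. In both sub-lines the later passage was brighter, by 0.56 log2 units in bone and 0.44 in liver, and the sub-lines overlapped. Bone differed from parental by -0.60 ± 0.33 (limma adjusted p = 0.723) and liver by -0.41 ± 0.33 (adjusted p = 0.843). Id3 reached at most 20.8 and was not tested. The Id genes thus had different orders over the same arrays, with Id4 highest in bone and Id1 and Id2 highest in parental cells.

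**Figure D2:**
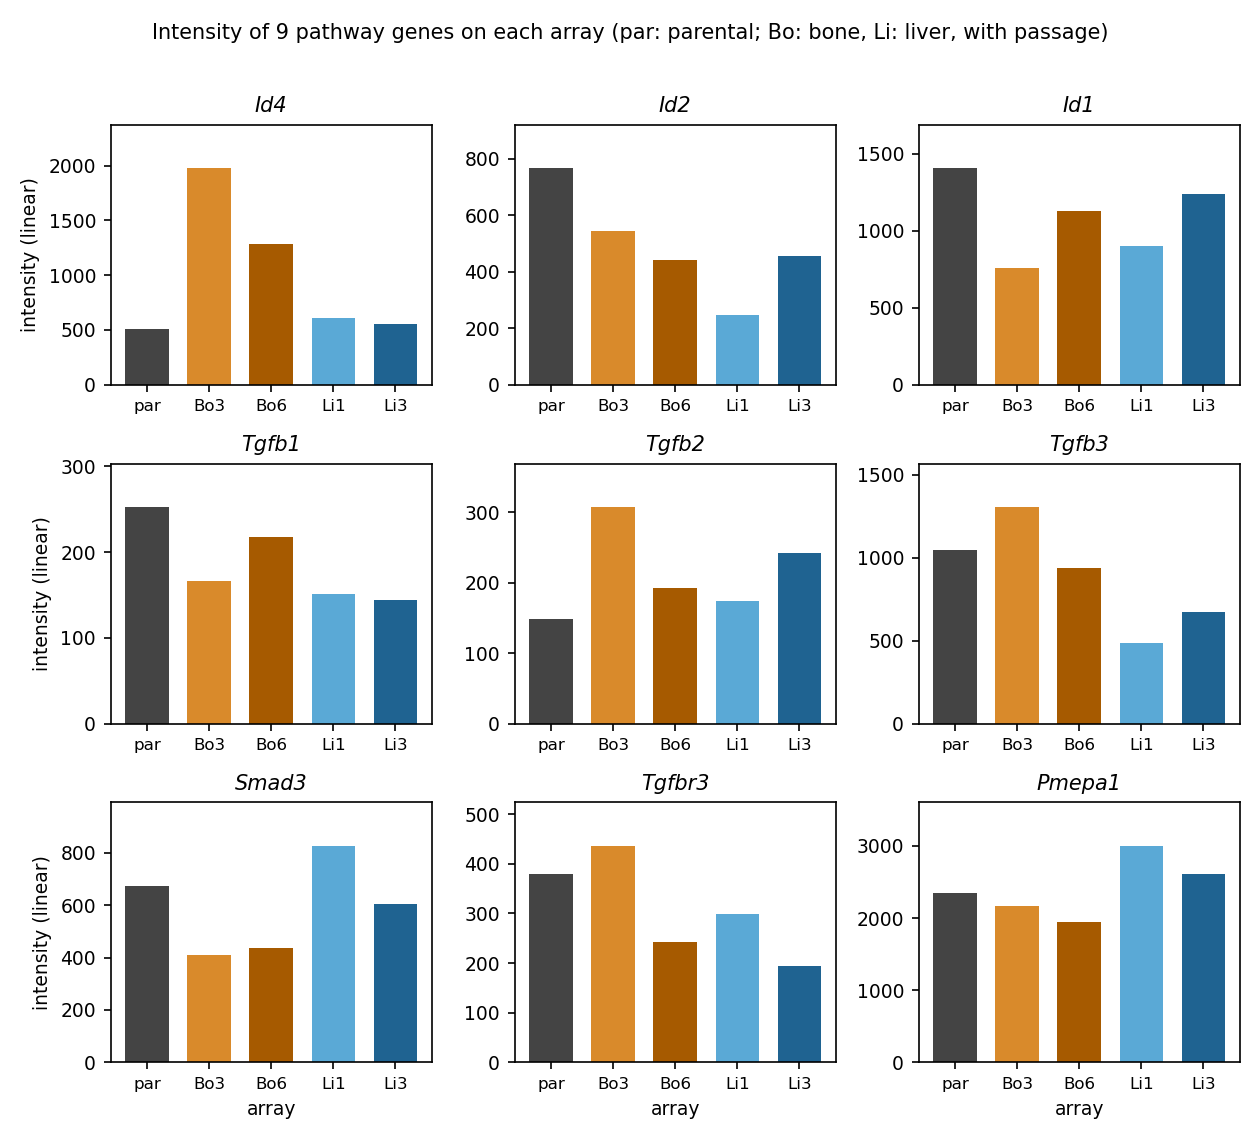
Bars give the linear intensity (vertical axis, from 0, with its own scale in each panel) of 9 genes on the 5 arrays (horizontal axis), 1 array per bar and so with no error bar. Id4 stands at 1978 and 1283 in bone against at most 607 elsewhere, Tgfb3 is lowest in liver, and Smad3 is lowest in bone.

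Of the TGF-beta and activin ligands, Tgfb3 had the largest difference between the sub-lines. Its intensity was 1050 on the parental array, 1308 and 939 on bone passages 3 and 6, and 486 and 674 on liver passages 1 and 3. Bone and liver did not overlap, and parental lay within the bone range. Bone exceeded liver by 0.93 ± 0.26 log2 units, or 1.91-fold, with 1.38-fold to 2.64-fold over the 4 pairs (limma adjusted p = 0.215, unadjusted p = 0.0101). Liver lay 0.86 ± 0.31 below parental, or 1.81-fold lower (limma adjusted p = 0.618, unadjusted p = 0.0328), while bone differed from parental by 0.08 ± 0.31 (adjusted p = 0.977). A single probe set measures Tgfb3, so no other probe set checks this order.

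Tgfb1 encodes TGF-beta 1, the isoform stored in large amounts in bone matrix. Its intensity was 253 on the parental array, 167 and 217 on bone passages 3 and 6, and 151 and 144 on liver passages 1 and 3. Parental was highest and liver lowest, without overlap. Liver lay 0.72 ± 0.25 log2 units below parental, or 1.65-fold lower (limma adjusted p = 0.59, unadjusted p = 0.0263). A second, dimmer probe set gave a difference near 0 (-0.0014), and the mean of both probe sets gave -0.36.

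Tgfb2 ran the other way, with its lowest value on the parental array. Its intensity was 148 there, 308 and 193 on bone passages 3 and 6, and 175 and 242 on liver passages 1 and 3. The bone mean exceeded parental by 0.67 ± 0.34 log2 units, or 1.59-fold (limma adjusted p = 0.699), and 4 probe sets gave 0.33 to 0.67. The sub-lines overlapped. The isoforms of TGF-beta therefore differed in which group was brightest: parental for Tgfb1, bone and parental for Tgfb3, and the sub-lines for Tgfb2.

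Inhba and Inhbb encode the subunits of activins A and B. Inhba had 170 on the parental array, 211 and 221 on bone passages 3 and 6, and 184 and 337 on liver passages 1 and 3. Parental was lowest, and the span within liver (0.82 log2 units) exceeded the mean difference of either sub-line from parental. Inhbb lay between 1185 and 1537 on all arrays, highest in parental cells, and bone differed from liver by 0.13 ± 0.19 (limma adjusted p = 0.783). Inhbc and Inhbe, which encode subunits made mainly in liver, reached at most 22.7 and 18.3.

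Few BMP ligands were measurable in these cells. Of 9 BMP ligand genes, 6 stayed below the filter on every array, among them Bmp2 with at most 2.6, Bmp4 with at most 19.8 and Bmp6 with at most 6.6. Both Bmp2 and Bmp4 encode bone-inducing ligands. The other three, Bmp7, Bmp8a and Bmp10, were dim. Bmp7 had 45.6 on the parental array, 54.9 and 29.5 on bone passages 3 and 6, and 66.2 and 56.2 on liver passages 1 and 3, so that every bone value lay below every liver value (-0.44 ± 0.26, limma adjusted p = 0.49). Bmp10, which signals mainly to endothelium and heart, had 31.5, then 30.9 and 35.7 in bone, and 23.3 and 10 in liver. Its difference of bone from liver was 0.62 ± 0.25 (limma adjusted p = 0.34, unadjusted p = 0.0433), and it depended on the value added before the logarithm, with 1.07 for an offset of 1 and 0.28 for 64.

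The latent TGF-beta binding proteins tie the inactive ligand to the extracellular matrix. Ltbp2, a member that binds fibrillin rather than latent TGF-beta, had 433 on the parental array, 357 and 221 on bone passages 3 and 6, and 434 and 462 on liver passages 1 and 3. Both bone arrays lay below all others, and passage 6 lay 0.66 log2 units below passage 3. Bone lay 0.64 ± 0.26 below liver, or 1.56-fold lower (limma adjusted p = 0.346, unadjusted p = 0.0453), but -0.31 with bone passage 3 alone and -0.97 with bone passage 6 alone. Ltbp3 lay between 2432 and 3120 and Ltbp1 between 185 and 231, and for Ltbp3 both bone values exceeded both liver values (0.23 ± 0.18, limma adjusted p = 0.594). A dim probe set of Ltbp3 went the other way by mean (-0.33), with 33.2 and 15.7 in bone and 30.9 and 36.5 in liver. Ltbp4 was dim, at 28.2 to 62.2, with its lowest value on bone passage 6.

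Markers of cells that could be carried over from tissue were read beside these values. In RNA from a whole culture, fewer cells of a type and less RNA per cell cannot be told apart. The fibroblast list (3 of 8 genes passed the filter) summed to 258 on the parental array, 165 and 146 in bone and 253 and 236 in liver. Pdgfra, the platelet-derived growth factor receptor of fibroblasts, made up 132, then 71.6 and 48.8 in bone, and 138 and 125 in liver. Col1a1 had 34.3 on the parental array, 15.4 and 15.6 in bone, and 28.1 and 16.1 in liver. Col1a2, which also passed, did not follow that order, with 46.7 on the parental array, 52.2 and 38.1 in bone, and 34.4 and 39.3 in liver. Pdgfrb, Col3a1, Dcn, Lum and Thy1 reached at most 18.0 and did not pass. The endothelial list (2 of 6 genes passed) summed to 292 on the parental array, 232 and 131 in bone and 269 and 255 in liver. Flt1 made up 206 on the parental array, 99.3 and 65.5 in bone, and 179 and 162 in liver. Kdr, the other gene that passed, had 54.8 on the parental array, 75.2 and 41.0 in bone, and 43.8 and 54.0 in liver.

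The macrophage list (8 of 9 genes passed) summed to 531 on the parental array, 737 and 1185 in bone and 919 and 744 in liver. The high sum on bone passage 6 came from Cd14, a receptor for lipopolysaccharide, with 336 on the parental array, 450 and 928 in bone, and 212 and 242 in liver. Of the 8 tested genes 6 were lower in bone than in liver by mean, as were 52.7% of all tested genes. The list median was -0.866, against -0.0235 over all tested genes. Csf1r, the receptor for macrophage growth factor, had 67.6 on the parental array, 89.3 and 107 in bone, and 169 and 220 in liver.

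Some other macrophage genes were also high in liver. Cd68 had 52.1 on the parental array, 103 and 74.8 in bone, and 173 and 172 in liver. Fcgr3, an antibody receptor, had 2.4 on the parental array, 1.3 and 1.1 in bone, and 30.4 and 19.7 in liver. These genes were thus high on both liver arrays, while others were high on liver passage 1. C1qa, a complement component, had 56.1 there and at most 1.2 on every other array, and Lyz2, a lysozyme of myeloid cells, had 140 there and 22.7 to 42.2 elsewhere. Adgre1 overlapped between the sub-lines, with 31.8 on the parental array, 42.5 and 36.1 in bone, and 49.9 and 27.6 in liver. Itgam reached at most 8.8 and did not pass the filter. Liver passage 1 was also the array with the lowest Id2 and Tgfb3.

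The osteoblast list (3 of 4 genes on the arrays passed) summed to 555 on the parental array, 533 and 453 in bone and 221 and 195 in liver. This order came from Alpl, an alkaline phosphatase, with 470 on the parental array, 445 and 395 in bone, and 143 and 108 in liver. Bone minus liver was 0.03 for Sp7 and -0.26 for Col1a1, the other genes of the list that passed. No listed marker stood at exactly 0 on any array, and the part of these cells in the differences was not tested.

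Of 12 receptor genes 10 were tested, and the lowest limma adjusted p for bone against liver among them was 0.476, for Tgfbr2. Tgfbr2, the type II receptor that binds TGF-beta first, had 912 on the parental array, 1057 and 930 on bone passages 3 and 6, and 1158 and 1371 on liver passages 1 and 3. Both liver values exceeded both bone values, and all 4 exceeded parental. Liver differed from parental by 0.46 ± 0.24 (limma adjusted p = 0.749), and bone from liver by -0.34 ± 0.19, with -0.46 for the second probe set.

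Tgfbr1, the type I receptor that Tgfbr2 activates, had 323 on the parental array, 321 and 324 in bone, and 406 and 369 in liver. The parental and bone values were nearly equal and both liver values were above them (bone minus liver -0.25 ± 0.18, limma adjusted p = 0.56). On its dimmer probe sets the sub-lines overlapped. One had 42.5 and 30.2 in bone and 44.9 and 30.8 in liver, and another 43.4 and 35.4 in bone and 37.4 and 42.2 in liver. Tgfbr3, the co-receptor betaglycan that presents TGF-beta 2 to Tgfbr2, had 379 on the parental array, 437 and 242 on bone passages 3 and 6, and 299 and 194 on liver passages 1 and 3. In both sub-lines the later passage was dimmer, by 0.81 log2 units in bone and 0.58 in liver, and at passage 3 bone exceeded liver by 1.10.

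The tested receptors with a Bmpr symbol had narrow ranges. Bmpr1a lay between 596 and 666 and Bmpr2 between 750 and 876 on the 5 arrays, with bone minus liver differences of 0.07 ± 0.18 and -0.09 ± 0.18 (limma adjusted p = 0.886 and 0.852). Bmpr1b reached at most 23.7 and was not tested. Of the receptors with an Acvr symbol, Acvr1 had 489 on the parental array, 435 and 299 in bone, and 557 and 415 in liver. Its sub-line values overlapped. Acvr2a, a type II receptor, was lowest on bone passage 6 (213) and highest on liver passage 1 (411). Acvr1b, the type I receptor of activin, lay between 153 and 212, and Acvr2b between 23.6 and 37.5. Acvrl1, the type I receptor of endothelium, was dim throughout, at 5.3 to 26.3.

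**Figure D3:**
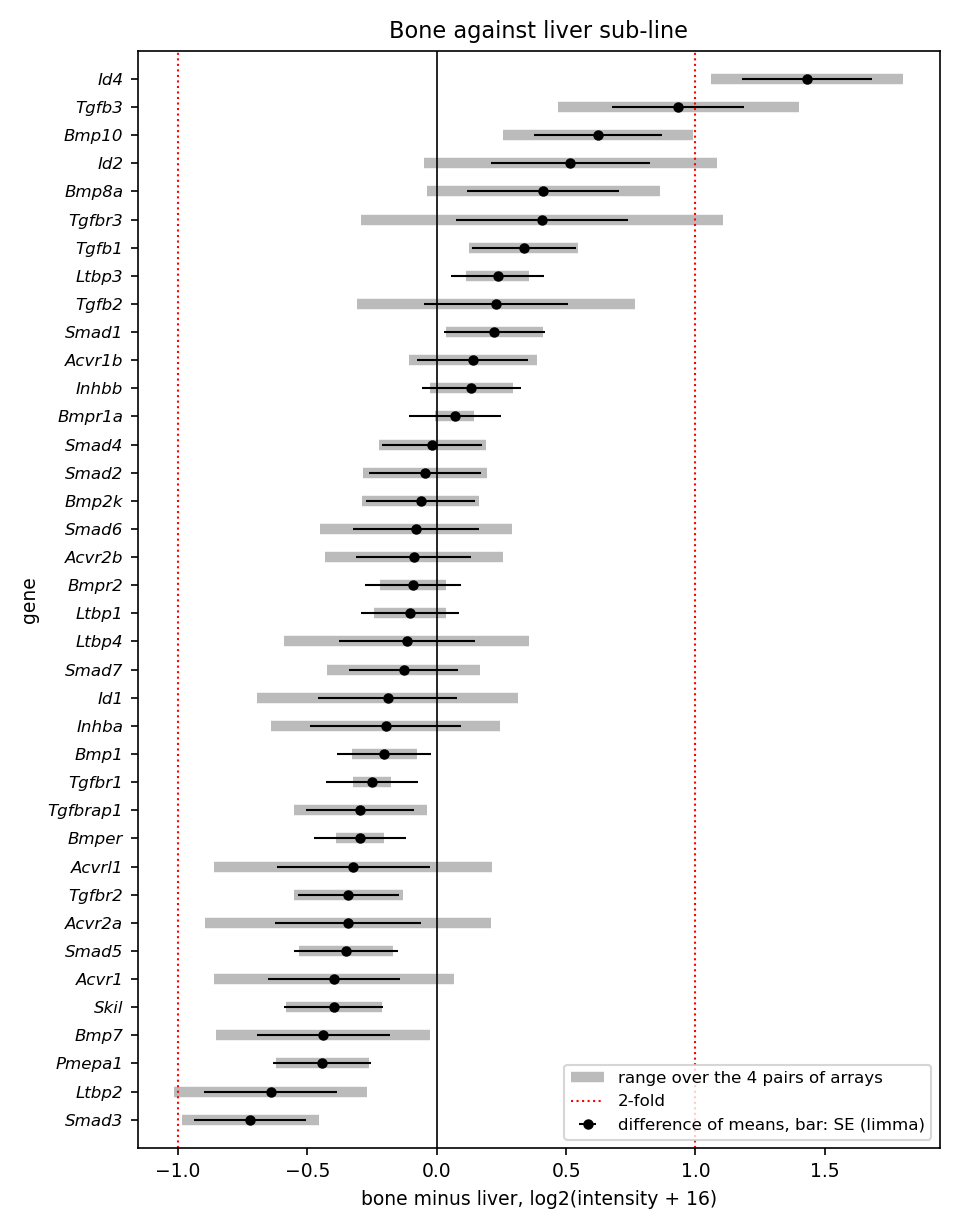
Points give the mean difference of bone from liver in log2(intensity + 16) (horizontal axis) for each of the 38 tested genes (vertical axis), black bars its SE in limma and grey bars the range over the 4 bone-liver pairs of arrays, with dotted lines at 2-fold. Id4 is the only gene whose grey bar lies wholly past 2-fold, and 17 genes have a grey bar wholly on 1 side of 0. Of the 38 genes, 6 have it wholly above 0 and 11 wholly below, against 21.2% and 25.9% of all tested genes.

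Of the Smads, Smad3 differed most between the sub-lines. It had 672 on the parental array, 410 and 437 on bone passages 3 and 6, and 827 and 605 on liver passages 1 and 3. Both bone values lay below the other three. Bone lay 0.72 ± 0.22 log2 units below liver, or 1.65-fold lower, with 1.37-fold to 1.98-fold over the 4 pairs (limma adjusted p = 0.235, unadjusted p = 0.0149), and 0.65 ± 0.26 below parental, or 1.57-fold lower (limma adjusted p = 0.608, unadjusted p = 0.0489). The 3 probe sets of Smad3 kept the sign of the mean difference in both comparisons but not the size, at -0.72 to -0.14 against liver and -0.68 to -0.47 against parental. On the dimmest of them the sub-lines overlapped, with 98.7 and 90.0 in bone and 131 and 83.9 in liver. In liver against parental their signs differed (-0.55 to 0.07).

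Smad2, the close relative of Smad3 in the same branch, did not share this order, with 423 on the parental array, 495 and 503 in bone, and 607 and 438 in liver. Smad4, the partner of all receptor-activated Smads, lay between 1603 and 1874 (bone minus liver -0.02 ± 0.19, limma adjusted p = 0.978). Among the BMP Smads, Smad1 lay between 552 and 739, and Smad5 had 142 on the parental array, 108 and 107 in bone, and 162 and 123 in liver (-0.35 ± 0.20, limma adjusted p = 0.479). Smad9 reached at most 17.1 and was not tested. Smad6 and Smad7, which inhibit the receptors, lay at 86.8 to 137 and 808 to 1090, with overlap of the sub-lines in both.

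Feedback and antagonism were represented by 6 members, of which Nog, Grem1 and Fst, the secreted antagonists noggin, gremlin 1 and follistatin, stayed below the filter at highest values of 15.3, 21.4 and 13.7. Pmepa1, which sequesters Smad2 and Smad3, had 2346 on the parental array, 2172 and 1945 on bone passages 3 and 6, and 3004 and 2611 on liver passages 1 and 3. Parental lay between the sub-lines, with bone below and liver above it. Bone lay 0.44 ± 0.19 log2 units below liver, or 1.36-fold lower (limma adjusted p = 0.362, unadjusted p = 0.0559), and its 3 probe sets gave -0.79 to -0.44.

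Skil, which encodes the Smad co-repressor SnoN, had 2118 on the parental array, 1424 and 1541 in bone, and 2142 and 1788 in liver. Bone was lowest, at 0.40 ± 0.19 below liver (limma adjusted p = 0.409) and 0.51 ± 0.23 below parental (limma adjusted p = 0.656, unadjusted p = 0.0711). Its second probe set gave only -0.08 against liver, and there the sub-lines overlapped, with 148 and 144 in bone and 181 and 133 in liver. Bmper, a secreted BMP-binding protein, was dim, at 30.0 and 26.7 in bone, 40.0 and 37.0 in liver and 35.3 in parental cells. With Ltbp2, Pmepa1 and Bmper, 3 members had both bone arrays below and both liver arrays above parental, and 13.6% of all tested genes had the sub-lines on opposite sides of parental.

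Some genes entered by name although they are neither ligand nor receptor. Bmp1 encodes a metalloproteinase that processes procollagen, and it lay between 952 and 1199. Bmp2k, a kinase, lay between 76.8 and 107. Tgfbrap1, which encodes a receptor-associated protein, had 265 on the parental array, 275 and 251 in bone, and 375 and 283 in liver. Tgfbi, an extracellular matrix protein named for its induction by TGF-beta, and Tgfb1i1, a focal adhesion adaptor, stayed below the filter at highest values of 22.8 and 6.8.

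Below the filter were also Acvr1c (at most 23.4), Bmp5 (13.2), Bmp8b (12.5) and Bmp15 (14.4). With no filter on dim genes all 55 members entered the limma fit and 0 were called at an adjusted p under 0.05, while 7, 2 and 4 had an unadjusted p under 0.05 in bone against liver, bone against parental and liver against parental, as did 11.8%, 7.81% and 6.94% of all 18193 genes. The 38 tested members had a median difference of bone from liver of -0.098 log2 units, against -0.0235 over all tested genes. By mean, 13 of the 38 were higher in bone and 25 lower, against 47.3% and 52.7% of all tested genes. At passage 3, which both sub-lines share, 19 were higher and 19 lower (49.5% and 50.3% of all tested genes). In every pair of arrays 6 members were higher in bone (21.2% of all tested genes) and 11 lower (25.9%). Against parental, bone was higher for 12 members and lower for 26 (47.7% and 52.3% of all tested genes), with a median of -0.115 against -0.0188. Liver was higher than parental for 20 and lower for 18 (51.7% and 48.3%), with a median of 0.0396 against 0.0144.

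Differences between passages of 1 sub-line have no replicate and no test. From bone passage 3 to passage 6, 0 members differed by 2-fold or more, as 2.43% of all tested genes did, and from liver passage 1 to passage 3 also 0 members did, as 2.81% did. Bone and liver were both measured at passage 3, and there 2 members were at least 2-fold apart (4.59% of all tested genes): Id4, 1.80 log2 units higher in bone, and Tgfbr3, 1.10 higher in bone. In the same comparison Tgfb3 was 0.94 higher in bone and Id1 0.69 lower.

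Several genes were measured by more than 1 probe set, which gives a check within an array but no further replicate. Of the 38 tested members, 27 had several probe sets past the filter. In bone against liver all probe sets of a gene had the same sign for 17 of the 27 genes and mixed signs for 10. The signs were the same for Id4, Smad3, Pmepa1 and Skil and mixed for Tgfb1 (-0.02 to 0.34). These are signs of mean differences, and on a further probe set of Smad3 and of Skil the bone and liver arrays overlapped.

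**Figure D4:**
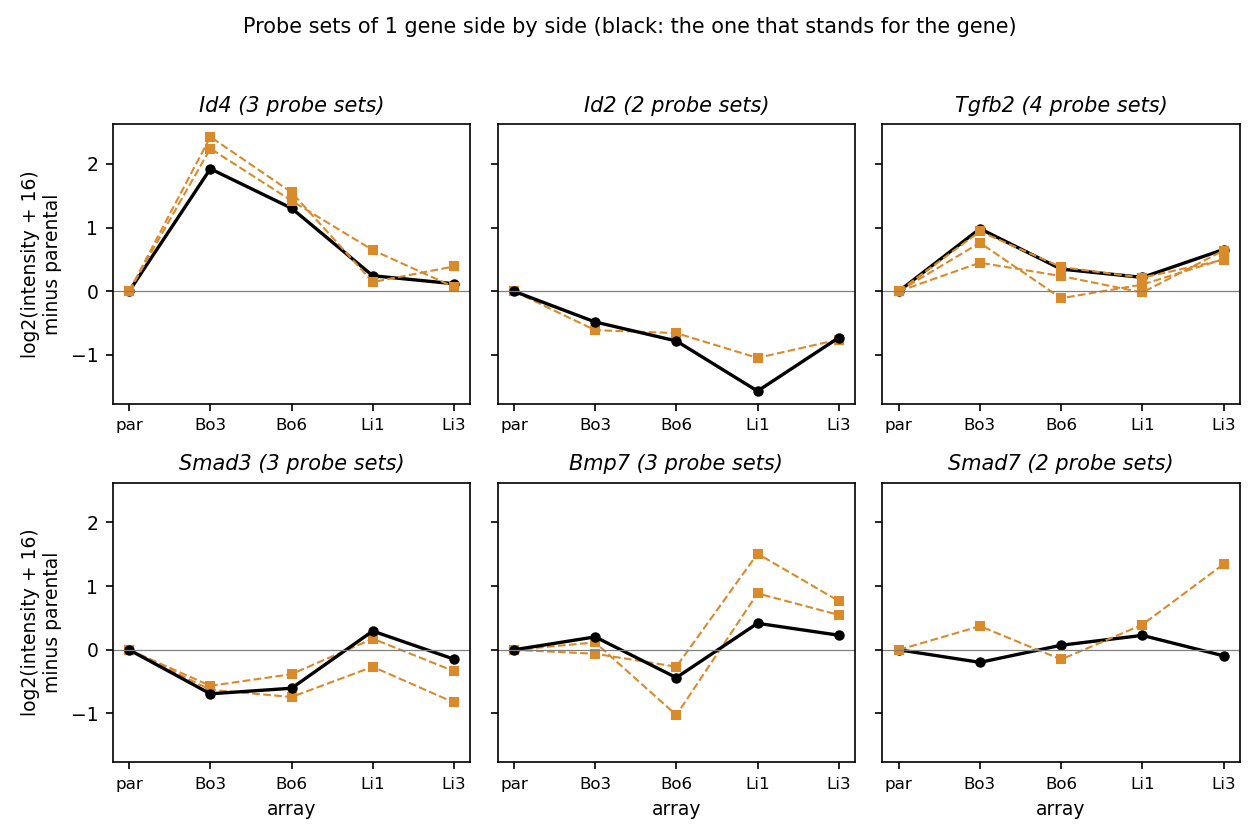
Lines follow each probe set that passed the filter for 6 genes over the 5 arrays (horizontal axis), as log2(intensity + 16) minus its parental value (vertical axis), with the probe set that stands for the gene in black. The 3 probe sets of Id4 run together, with bone 1.61 to 1.99 above parental, while those of Smad3 and Smad7 spread apart in liver.

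Other genes of these pathways, taken from lists of ligands, co-receptors, antagonists, activators of latent TGF-beta, Smad regulators and targets, numbered 75 on the arrays, of which 57 were tested. At an unadjusted p under 0.05, limma called 8 of the 57 in bone against liver (14.1% of all tested genes). It called 8 in bone against parental (8.17%) and 7 in liver against parental (7.49%). At an adjusted p under 0.05 it called 0 in bone against liver (0.19% of all tested genes). It called 1, higher, in each comparison with parental (0.135% and 0.0159%). Both calls were Sostdc1, which encodes a secreted antagonist of BMPs and Wnts. It had 69.3 on the parental array, 2456 and 1962 in bone, and 1133 and 956 in liver, and it rose 25.9-fold in bone (4.70 ± 0.26 log2 units, limma adjusted p = 0.00757) and 12.4-fold in liver (3.63 ± 0.26, adjusted p = 0.0361), both against the same parental array.

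The list of BMP targets held 9 genes on the arrays, of which 6 were tested. In bone against liver 4 of the 6 had an unadjusted limma p under 0.05, as did 14.1% of all tested genes. Msx1, a homeobox gene of this list, had 146 on the parental array, 81.3 and 72.3 in bone, and 185 and 194 in liver. It was the 1 listed gene past 2-fold in every bone-liver pair, as 1.06% of all tested genes were. It was 2.22-fold lower in bone (-1.15 ± 0.18, limma adjusted p = 0.0931). The others with an unadjusted p under 0.05 were higher in bone by mean. Hey1, a transcriptional repressor, was higher by 1.53 ± 0.41 log2 units (limma adjusted p = 0.209). Gata3 was higher by 0.71 ± 0.21 (adjusted p = 0.235) and Gata2 by 0.67 ± 0.18 (adjusted p = 0.209). The rest of the tested targets, Sp7 and Hamp, differed by 0.03 and -0.29. Hey1 had 852 and 340 in bone, 198 and 157 in liver and 327 in parental cells. The median difference of bone from liver over the 6 tested genes was 0.347. Of the TGF-beta targets 12 of 15 on the arrays were tested, and their median difference of bone from liver was -0.181. By mean, 4 of them were higher in bone and 8 lower (47.3% and 52.7% of all tested genes). Ccn2, a matricellular protein induced by TGF-beta, had 0.9 on the parental array, 23.6 and 31.3 in bone, and 1.5 and 16.1 in liver, mostly near or below the filter value.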

How the data were processed

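Per the labels' protocols, RNA of 5 samples was hybridised to 1 Affymetrix array each. The values deposited by the authors are linear intensities, 1 for each probe set. The submitters' processing notes name RMA, with no version given, yet the values lack the log2 scale of RMA and have a trimmed mean of 150.0 on every array. Log2 values had been assumed when the tests were designed. The deposited intensities were therefore taken as log2(intensity + 16), without normalizing them again. Gene names came from the platform annotation, matched by gene identifier to RefSeq (GRCm38.p6) for 34741 of the 34945 probe sets with 1 gene. Probe sets with several genes (1 of which names a member) or none were left out. Each gene was represented by its brightest probe set on average.

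All 12609 genes that passed the filter were fitted with limma 3.58.1 (lmFit, eBayes) in R 4.3.3, with parental, bone and liver as groups and 2 residual degrees of freedom, and called at a Benjamini-Hochberg adjusted p under 0.05. The fit was tested on simulated data. Alternatives changed the offset, the filter, the scaling, the choice of probe set, the grouping and the fold threshold, and left out each passage in turn. The number of arrays limits the precision. The members, the lists and the genes named were chosen with earlier results of these data known. Every member was named, and of the other pathway genes those called or at least 2-fold apart in every pair were eligible. Outside this rule, Hey1, Gata2 and Gata3 were named for their unadjusted p in these data, with Sp7 and Hamp beside them.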

Additional observations from a re-analysis of the deposited data

Results flagged for a closer look

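For 3 of the 38 tested members both bone arrays lay on one side of the parental array and both liver arrays on the other, as they did for 13.6% of all tested genes. The difference of bone from liver was -0.64 log2 units for Ltbp2, a matrix protein of the latent TGF-beta binding family, -0.44 for Pmepa1, an inhibitor of Smad2 and Smad3 signalling, and -0.30 for Bmper, a BMP-binding protein. In each the bone arrays were the lower ones. By limma the adjusted p of these differences lay between 0.346 and 0.5, so none passed the test. On liver passage 1 Ltbp2 was only 0.0026 above parental.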

How the results depend on the processing

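With early and late passage as a block and the parental array left out, limma called 1 member in bone against liver, Id4, in place of 0, and 161 genes in all. At a threshold of 3-fold in every pair, 0 members remained in bone against liver and 0 in bone against parental, where 1 had passed 2-fold in each. Leaving out each passage in turn gave 0 to 2 members at least 2-fold apart in liver against parental, with Id2 and Tgfb3 reaching 2-fold without liver passage 3. With each passage left out in turn, the median of the members in liver against parental ranged from -0.121, without liver passage 1, to 0.0396, and so changed sign. The mean of all probe sets of a gene gave -0.0479. Of the values for the members' counts and medians, 102, the -0.0479 among them, kept their call or moved by less than the spread between pairs of arrays, and the other 24 values for Id4 kept their direction and call. Some of the 102 could not move. Leaving out a bone passage cannot change the median of liver against parental or its number of members 2-fold apart. Leaving out a liver passage likewise cannot change those of bone against parental, nor the difference of Id4 there. The block left the median of bone against liver at -0.098 by design. Over all tested genes limma called 24 in bone against liver, and 0 to 161 under the alternatives. It called 17 in bone against parental (1 to 52) and 2 in liver against parental (0 to 38). Under median centring and quantile normalization the median of all genes stayed within 0.0496 of 0. Bone and liver share only passage 3, so the block pairs early with early and late with late rather than equal passages. Groups of 1 or 2 arrays limit every comparison, and a dim member can differ without being detected here.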

Other observations

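Bmp7, a BMP ligand, was measured by 2 further probe sets that gave a wider gap than the one used for the gene. One had 24.7 on the parental array, 28.1 and 4.0 on bone passages 3 and 6, and 59.2 and 43.5 on liver passages 1 and 3. The other had 5.4 on the parental array, 4.5 and 1.8 in bone, and 44.9 and 20.4 in liver. On all 3 probe sets both liver values lay above both bone values, with differences of bone from liver of -1.30 to -0.44 log2 units.

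Smad7, the inhibitory Smad that TGF-beta induces, had a second probe set with 231 on the parental array, 304 and 207 in bone, and 309 and 612 in liver. Its value on liver passage 3 had no counterpart on the brighter probe set, which had 869 there and 929 in parental cells. Liver minus parental was 0.87 on the second probe set and 0.07 on the first.

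Fstl3, a secreted activin antagonist related to follistatin, had 33.9 on the parental array, 143 and 134 in bone, and 81.9 and 147 in liver. All 4 sub-line arrays lay above parental, by 1.63 ± 0.33 log2 units in bone (limma adjusted p = 0.231) and 1.34 ± 0.33 in liver (limma adjusted p = 0.401). Bambi, a decoy receptor that blocks TGF-beta and BMP signals, had 254 on the parental array, 230 and 82.1 in bone, and 115 and 111 in liver, with liver 1.06 ± 0.51 below parental (limma adjusted p = 0.713).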
